A study of Cricetulus griseus with 9 samples.

Results

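Rbm3 and Cirbp are the cold-inducible RNA-binding proteins, described here in CHO-K1 cells, a line from Chinese hamster ovary, after 3 transfections that raise or block the microRNA miR-29. They are 2 of the 15557 genes of the deposited table, taken by their mouse Ensembl identifiers ENSMUSG00000031167 (Rbm3) and ENSMUSG00000045193 (Cirbp). The files hold identifiers only, and both symbols come from the member list that defined this gene pair. The pair was chosen as 1 part by values of these same libraries. In the main fit described below, Rbm3 was the 1 gene of 9504 tested that passed an adjusted p under 0.05 between the pre-miRs (limma). Alternative fits called from 0 to 3627 genes in that comparison. It is given below as a description with no test. Whether the values of Cirbp itself, beside those of Rbm3, played a part in choosing the pair is not recorded. Cirbp is therefore treated the same way there.

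The 3 groups had 3 libraries each. They received pre-miR-29b-1 or pre-miR-29a, synthetic precursors that raise the microRNA of that name, or anti-miR-29a, an inhibitor that the submitters describe as blocking miR-29a and miR-29b-1 alike. All cells were of this single line, were grown in medium with charcoal-stripped serum, and were transfected with the same lipid reagent for 48 h, while neither untreated nor control-transfected cells were analysed here. The series text speaks of separate transfection experiments without saying whether each held all 3 molecules. If each held 1, experiment and molecule cannot be told apart. Nothing in the labels ties the replicate libraries to separate cultures, so p-values measure a spread between libraries that may be technical. Growth temperature is not given in the sources used here.

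RBM3 and CIRBP are small proteins with 1 RNA recognition motif followed by a glycine-rich and arginine-rich tail. Both are known for their rise under mild cold, and both bind mRNAs and affect their stability and translation. CIRBP is also induced by ultraviolet light and other stresses and can enter stress granules, while RBM3 is known to support translation and cell survival in the cold. The miR-29 microRNAs share a seed, the stretch that pairs with target mRNAs, and are best known for lowering transcripts of the extracellular matrix.

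Both genes have the same plan in the deposited annotation, which aligned mouse proteins to the hamster assembly CriGri_1.0. Rbm3 lies on scaffold JH000543 from 839716 to 841390 on the minus strand, and Cirbp on scaffold JH000325 from 953070 to 954083 on the plus strand. Each has 1 model of 5 coding exons that shares no bases with another gene. The coding length is 471 bases, or 157 codons, for Rbm3 and 516 bases, or 172 codons, for Cirbp. In both, exon 1 has 103 coding bases and exon 2 has 107, and only the later exons differ, with 106, 94 and 61 bases in Rbm3 against 139, 82 and 85 in Cirbp. Of 10254 single-model genes with at least 2 exons, 3 begin with this pair of lengths, these genes included. Untranslated regions are outside the models, so the values below rest on reads from coding exons. How reads that match more than 1 place in the genome were counted is not stated.

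**Figure D1:**
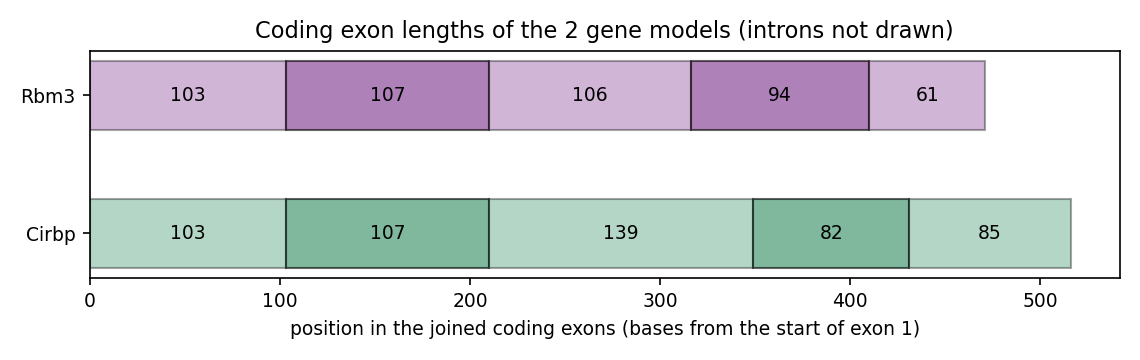
Coding exons of Rbm3 and Cirbp joined end to end and drawn to scale, with the length of each exon in bases. The x axis gives the position in the joined exons; exons 1 and 2 are 103 and 107 bases long in both genes, and exons 3 to 5 differ.

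The level of each gene is given in FPKM, fragments per kilobase of gene model scaled to the size of the library, so levels of the 2 genes can be compared per length. Low values fell in steps of 1 read, from which 15190000 to 20790000 implied reads per library were obtained. A gene's implied reads were computed from its FPKM and full coding length. The steps were read in genes of at least 3000 bases, and whether they hold for genes as short as these was not checked. Rbm3 rested on 621 to 1547 implied reads per library and Cirbp on 578 to 1438. Averaged over the 9 libraries, Rbm3 stood at 133.8 FPKM, above 82.8% of the tested genes, and Cirbp at 97.7 FPKM, above 75.9%. Both genes were thus far from the lowest levels in all libraries. How closely their replicate libraries matched is given below.

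Rbm3 was high in 2 groups and low in the third. With pre-miR-29b-1 its libraries held 158.0, 144.9 and 150.4 FPKM. With anti-miR-29a they held 162.3, 165.3 and 159.4 FPKM. With pre-miR-29a they held 91.2, 93.0 and 79.5 FPKM. All 3 pre-miR-29a libraries were below all 6 others, as in 532 tested genes, or 5.60% of 9504.

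In order of level, Rbm3 averaged 162.3 ± 2.95 FPKM (SD, n = 3) in the anti-miR-29a group, 151.1 ± 6.55 FPKM in the pre-miR-29b-1 group and 87.9 ± 7.33 FPKM in the pre-miR-29a group. The first of these steps was small. The highest pre-miR-29b-1 library lay 1.41 FPKM under the lowest anti-miR-29a library, less than the SD of either group, and the group mean was 6.91% lower. The second step was large: 51.9 FPKM separated the lowest pre-miR-29b-1 library from the highest pre-miR-29a library.

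Between the pre-miRs, Rbm3 was 1.72-fold as high with pre-miR-29b-1 as with pre-miR-29a by group means. On the log2(FPKM + 1) scale the difference was 0.78 (SE 0.063, 95% interval 0.64 to 0.92). The libraries of the pre-miRs did not overlap for Rbm3, nor for 18.9% of all tested genes. The main fit called 0.0105% of tested genes in this comparison, Rbm3 alone. With only the compared groups in the fit, Rbm3 was not called. Since this comparison chose the gene, nothing is read from those shares. By size alone its difference ranked 63 among 9504 genes, and 45 among the 8618 genes that averaged 5 FPKM or more.

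Against anti-miR-29a, the level of Rbm3 with pre-miR-29a was 45.8% lower by group means, a log2 difference of -0.88 (SE 0.063, 95% interval -1.02 to -0.74). With pre-miR-29b-1 the log2 difference from anti-miR-29a was -0.10 (SE 0.063, 95% interval -0.25 to 0.04). These values use the libraries that chose the gene and the same anti-miR-29a group, and are given without a test. Many genes stood apart in these comparisons: libraries were free of overlap in 62.2% of tested genes with pre-miR-29a and in 67.6% with pre-miR-29b-1, Rbm3 among them in both.

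At least 1.5-fold lower with pre-miR-29a than with anti-miR-29a, and under 1.2-fold from anti-miR-29a with pre-miR-29b-1, were 28 of 9504 tested genes (0.295%). With the pre-miRs exchanged, 6 genes (0.0631%) had the pattern. Rbm3 had the highest mean level of the 28 genes. These limits were set after the values of Rbm3 were seen, and the counts describe its surroundings only.

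**Figure D2:**
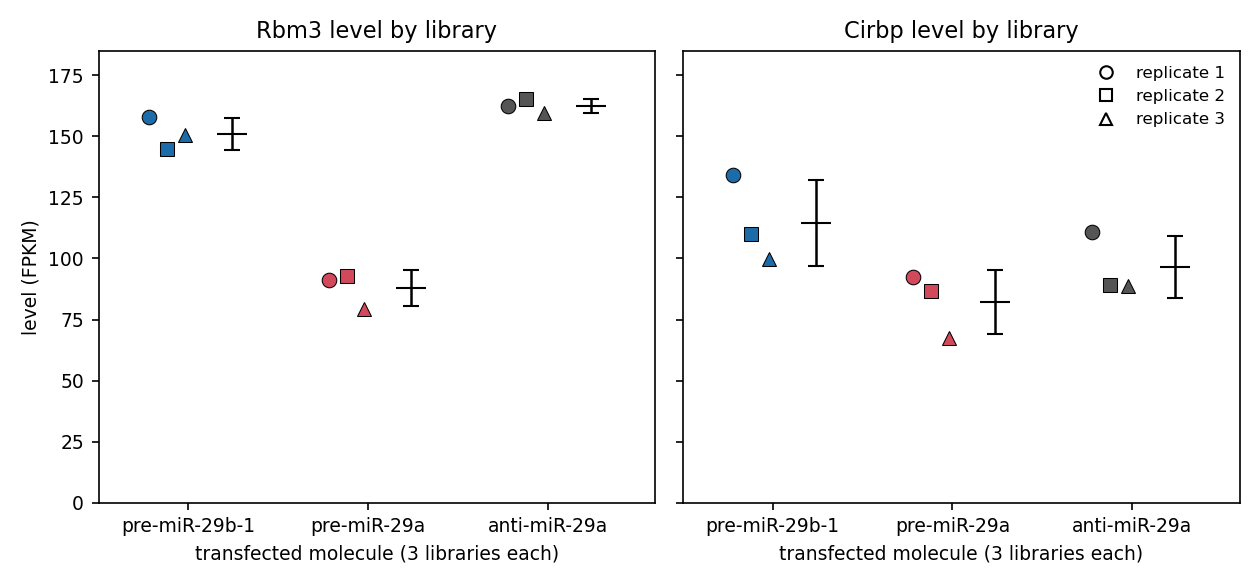
Level of Rbm3 (left) and Cirbp (right) in FPKM for each of the 9 libraries, by transfected molecule; marker shapes give the replicate number, and the bar beside each group is the mean ± SD of 3 libraries. For Rbm3 the pre-miR-29a libraries, at 79.5 to 93.0 FPKM, lie below all others, while Cirbp libraries spread within each group.

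Cirbp had its highest group with pre-miR-29b-1, and groups next to each other in level overlapped. With pre-miR-29b-1 its libraries held 134.0, 109.8 and 99.9 FPKM. With anti-miR-29a they held 111.0, 89.1 and 88.9 FPKM. With pre-miR-29a they held 92.6, 86.7 and 67.5 FPKM. The anti-miR-29a libraries overlapped both pre-miR groups, while the pre-miR groups did not overlap each other, as in 18.9% of all tested genes.

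The order of the Cirbp means was 114.6 ± 17.5 FPKM (SD, n = 3) in the pre-miR-29b-1 group, 96.3 ± 12.7 FPKM in the anti-miR-29a group and 82.3 ± 13.1 FPKM in the pre-miR-29a group. Neither step between neighbours was clear of the spread within groups when replicate numbers were ignored. Libraries of the same replicate number kept the order of the means each time, but the labels do not say that a number pairs them. Anti-miR-29a thus came between the pre-miRs for Cirbp, whereas for Rbm3 it had the highest mean.

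Neither pre-miR gave a called difference from anti-miR-29a in Cirbp, but the calls depended on the fit. These comparisons share the pre-miR libraries with the comparison that chose the pair, so their p-values are not independent of that choice. The log2 difference was 0.24 (SE 0.14, 95% interval -0.07 to 0.56) with pre-miR-29b-1, and its adjusted p was 0.167 (limma, Benjamini-Hochberg). With pre-miR-29a it was -0.23 (SE 0.14, 95% interval -0.54 to 0.08), with an adjusted p of 0.186 (limma). With array weights the pre-miR-29a difference was -0.39 and was called (adjusted p 0.00841, limma), and with the replicate number as a block both differences were called. Among all tested genes 55.2% were called in the first of these comparisons and 58.4% in the second. The intervals reach 1.47-fold the anti-miR-29a level for pre-miR-29b-1 and 0.685-fold for pre-miR-29a. The size of the differences was ordinary, since more distant from anti-miR-29a were 49.6% of tested genes with pre-miR-29b-1 and 54.8% with the other pre-miR.

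Between the pre-miRs, Cirbp was 1.39-fold as high with pre-miR-29b-1 by group means, the same direction as Rbm3. The log2 difference was 0.47 (SE 0.14, 95% interval 0.16 to 0.79), given without a test. The nearest libraries of the pre-miRs lay 7.28 FPKM apart. By size this difference ranked 209 among 9504 tested genes.

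**Figure D3:**
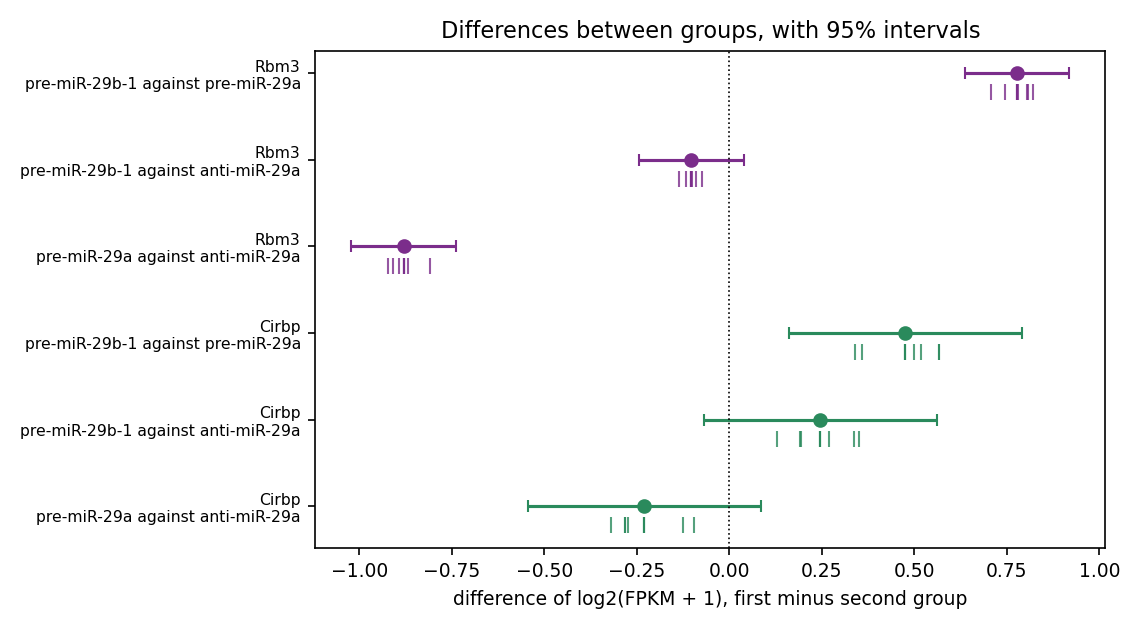
Difference of log2(FPKM + 1) between groups, first minus second, for Rbm3 and Cirbp in 3 comparisons. Points are estimates with all 9 libraries, bars are 95% intervals from the fit across all genes, and the short ticks under each bar are the estimates with 1 library left out; the Rbm3 ticks stay close to their points, and those of Cirbp spread more widely.

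The genes also differed in how far their replicate libraries spread. The residual SD of log2(FPKM + 1) within groups was 0.080 for Rbm3, close to the median of 0.080 over 1267 genes of like level, those whose mean log2 value lay within 0.5. For Cirbp it was 0.21, against a median of 0.078 over 1544 genes of like level, and 97.5% of those genes had a smaller SD. These SDs come from the fit without a replicate term. With the replicate number as a block, the SE of the Cirbp differences was 0.066 against 0.14 without it. For Rbm3 it was 0.059 against 0.063. For Cirbp the coefficient of variation within groups was 13.2% to 15.9%, while the implied reads give a counting error of 2.64% to 4.16% per library. For Rbm3 the coefficient of variation was 1.81% in the anti-miR-29a, 4.34% in the pre-miR-29b-1 and 8.34% in the pre-miR-29a group, at counting errors of 2.54% to 4.01%.

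**Figure D4:**
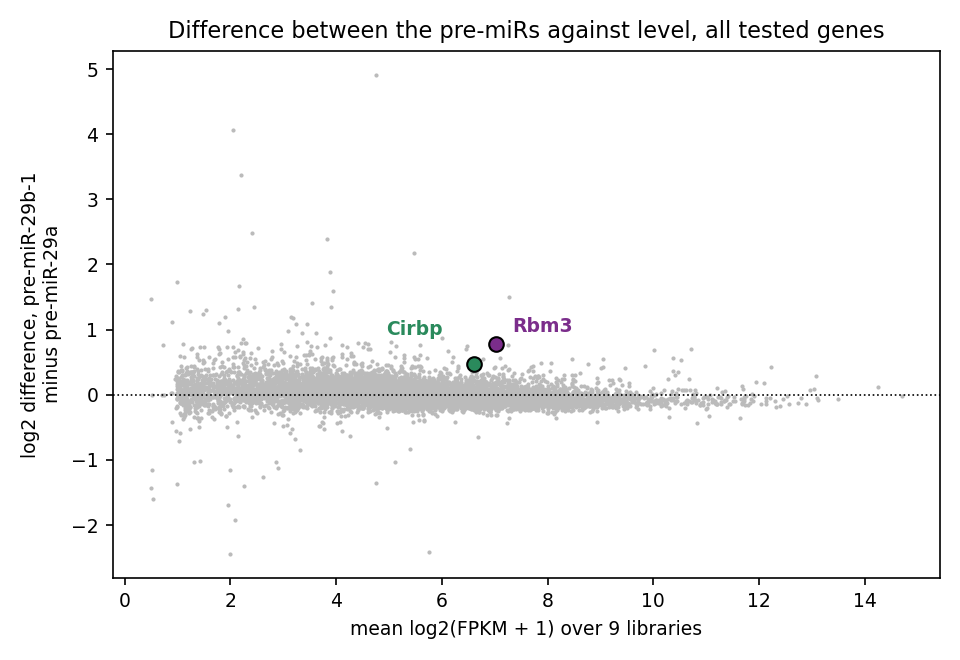
Log2 difference, pre-miR-29b-1 minus pre-miR-29a (y axis), against mean log2(FPKM + 1) over the 9 libraries (x axis) for the 9504 tested genes, with Rbm3 and Cirbp marked. Both lie above 0, at 0.78 and 0.47, at levels where most genes lie close to 0.

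The ratio of the 2 genes within a library does not depend on how that library was scaled. The ratio of Rbm3 to Cirbp was 1.18, 1.32 and 1.51 in the pre-miR-29b-1 libraries. It was 1.46, 1.85 and 1.79 in the anti-miR-29a libraries. It was 0.985, 1.07 and 1.18 in the pre-miR-29a libraries. The group means were 1.33 ± 0.16, 1.70 ± 0.21 and 1.08 ± 0.096 (SD, n = 3). The pre-miR-29a and anti-miR-29a ratios did not overlap, so the genes stood at unequal distances from anti-miR-29a with pre-miR-29a. The ratio carries the choice of Rbm3 and is given without a test. The pre-miR-29b-1 ratios overlapped those of anti-miR-29a, and their lowest value was just above the highest with pre-miR-29a.

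**Figure D5:**
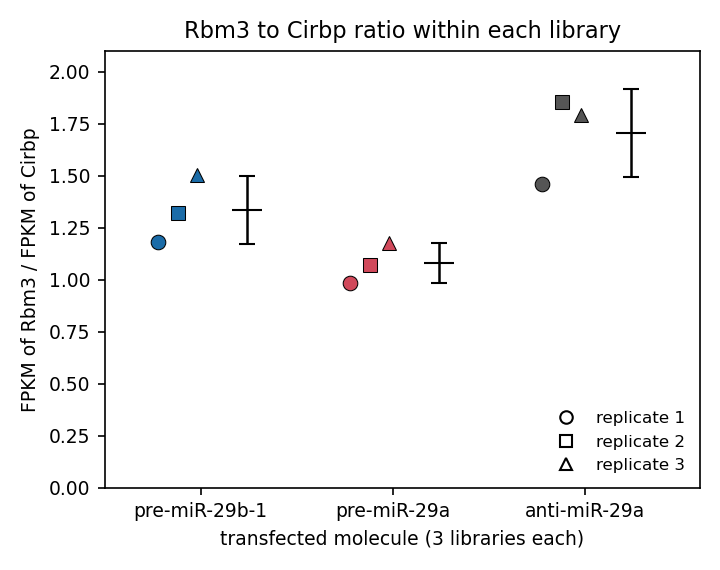
FPKM of Rbm3 divided by FPKM of Cirbp in each of the 9 libraries, by transfected molecule; marker shapes give the replicate number, and bars are the mean ± SD of 3 libraries. The ratio is lowest with pre-miR-29a (0.985 to 1.18) and highest with anti-miR-29a (1.46 to 1.85).

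Genes with a like pattern were sought over the 9 libraries by Pearson's r of log2(FPKM + 1), among 4130 genes that averaged at least 5 FPKM and had a log2 range of at least 0.5. The 9 libraries form 3 groups of replicates, so r is a description. The closest gene to Rbm3 was ENSMUSG00000002343 (r = 0.954). Its level was 32.1 ± 2.37 FPKM (SD, n = 3) in the pre-miR-29b-1 group, 35.8 ± 2.14 FPKM in the anti-miR-29a group and 23.2 ± 2.81 FPKM in the pre-miR-29a group. The next was ENSMUSG00000025732 (r = 0.943), at 29.3 ± 0.55, 33.3 ± 2.28 and 22.1 ± 0.60 FPKM in the same order. Both had their lowest group with pre-miR-29a, as Rbm3 did, but both were picked for their likeness to Rbm3 over these libraries. Rbm3 had 1 gene at an r of at least 0.95.

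Cirbp had 15 genes at an r of at least 0.95. The closest were ENSMUSG00000034254 (r = 0.987) and ENSMUSG00000021493 (r = 0.985). The first stood at 99.5, 88.0 and 84.3 FPKM with pre-miR-29b-1, 91.0, 75.6 and 74.4 FPKM with anti-miR-29a, and 81.7, 74.6 and 63.2 FPKM with pre-miR-29a. It was picked for its likeness to Cirbp over these libraries, and like Cirbp it fell from replicate 1 to replicate 3 in each group. Such an r takes in the spread within groups as well as the differences between them. The r between Rbm3 and Cirbp was 0.665, lower than that of 720 other genes with Rbm3 and of 286 other genes with Cirbp.

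The nearest gene models on either side of Rbm3 and of Cirbp did not order the group means as their neighbour did. Below Rbm3, 12279 bases away on the same strand, the next gene stood at 21.6 ± 1.24 FPKM (SD, n = 3) in the pre-miR-29b-1 group, 13.1 ± 0.70 FPKM in the anti-miR-29a group and 17.9 ± 2.13 FPKM in the pre-miR-29a group. Above it, 11764 bases away, the values were 19.5 ± 0.84, 18.3 ± 0.75 and 20.6 ± 1.26 FPKM in the same order. Neither neighbour was lowest with pre-miR-29a, the group where Rbm3 was low. Beside Cirbp, the gene 12134 bases before it stood at 73.3 ± 13.9, 39.9 ± 7.58 and 49.4 ± 8.69 FPKM. The gene 8040 bases after it stood at 3.68 ± 1.10, 9.86 ± 1.82 and 3.60 ± 0.76 FPKM.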

How the data were processed

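FPKM per gene and library came from 1 table deposited by the authors. Per the submitters' processing notes, FastQC, TopHat2 2.0.13 and Cuffnorm were used. The scaling of libraries, the use of strand and any filter were not given in the sources used here. Per the file headers, the annotation holds mouse proteins of Ensembl release 66 aligned to CriGri_1.0, and its coordinates, deposited by the authors, gave exon lengths and other positions.

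Implied reads came from steps of FPKM times coding length in 1156 unshared single-model genes of at least 3000 bases, where 99.1% to 100% of values up to 5 reads lay within 0.2 of a whole number. A linear model of log2(FPKM + 1), a scale that understates changes of low genes, was fitted with limma 3.58.1 (R 4.3.3) and a variance trend. It held 1 term per group and covered the 9504 genes that averaged 1 FPKM or more in the 9 libraries. Two-sided p-values were adjusted by Benjamini-Hochberg over all genes of a comparison, and an adjusted p under 0.05 was called. The script was tested on simulated data. Alternatives changed pseudocount, filter, scaling, variance model, library weights, libraries in the fit and the replicate block, and left out each library.

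Members and lists were chosen with earlier results of these data known. Named genes were the members and, for each, the 2 of highest r. The RefSeq table of CriGri-PICRH-1.0 matched 0 identifiers, so lists of heat shock, splicing, clock and cell type marker genes were not used and the cell line was not checked against markers.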

Additional observations from a re-analysis of the deposited data

How the results depend on the processing

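The 6 member differences kept their direction under all 11 alternatives and with each of the 9 libraries left out. Between the pre-miRs, Rbm3 ranged from 0.75 to 0.86 (log2) over the alternatives and from 0.71 to 0.82 with 1 library left out, and Cirbp from 0.46 to 0.64 and from 0.34 to 0.57. With quantile normalization, which moved the median of all genes by less than 0.1, Rbm3 with pre-miR-29b-1 stood at -0.020 from anti-miR-29a. With array weights, at 3.54 for replicate 3 and 0.213 for replicate 1 of pre-miR-29a, Rbm3 with pre-miR-29a stood at -0.98 from anti-miR-29a, and Cirbp at -0.39 with an adjusted p of 0.00841 (limma). With the replicate block, Cirbp against anti-miR-29a was called at 0.24 with pre-miR-29b-1 (adjusted p 0.0114, limma) and at -0.23 with pre-miR-29a (adjusted p 0.0143, limma). Over all alternatives the adjusted p of Cirbp lay between 0.0114 and 0.485 in the first comparison and between 0.00841 and 0.569 in the second (limma). As above, none of these is independent of the choice of the pair. Same-numbered libraries deviated from their group means together with r of -0.02 to 0.29, over 0.1 in 6 of 9 pairs. Whether the replicate numbers pair the libraries is thus not settled, and the main fit held no replicate term.

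Leaving out 1 library moved Cirbp against anti-miR-29a to between 0.13 and 0.35 with pre-miR-29b-1 and between -0.32 and -0.10 with pre-miR-29a, with no call. The count of called genes between the pre-miRs was 1. It became 3627 under array weights and 184 under the replicate block, and 0 without moderation or with only the groups compared, where 1333 and 1294 genes had an unadjusted p under 0.05 (limma). It was 1370 without pre-miR-29a replicate 1 and 1 without any other library. The cause was not tested. Counts against anti-miR-29a stayed within 1.5 times.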

Other observations

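In Cirbp the library numbered 1 was the highest and the library numbered 3 the lowest of each group. This order held in 103 of the 9504 tested genes (1.08%), and not in Rbm3. The labels do not say that a number marks a shared culture, day or preparation.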
